A study of Mus musculus with 3 samples.

Results

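Solute carriers are membrane proteins that move nutrients, ions and metabolites across the plasma membrane and the membranes of organelles. They are grouped into numbered families by sequence, and the first number in a symbol of the Slc type names the family. The urothelium, the epithelium that lines the bladder, is known for keeping urine and blood apart with a layer of uroplakin plaques, and its carriers feed the cells and set their pH, volume and redox state. The genes described here are those whose symbol starts with Slc and which reached 10 CPM (unique molecular identifiers, UMIs, of a gene scaled to a common library total) in 1 or more of 3 libraries, with raw UMIs summed over urothelial cells. Urothelial cells were barcodes with at least 5000 UMIs, at most 20% mitochondrial UMIs and at least 0.2% of UMIs from Upk1a, Upk1b, Upk2 and Upk3a, which encode the uroplakins. Of 389 such symbols among 31053 genes, 104 met the rule. Another 86 lay between 1 and 10 CPM at their highest and 199 stayed under 1 CPM in every library, 65 of them without a UMI in these cells. Because the level chose the genes, levels are given as a description and were not tested.

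The libraries were 10x Genomics 3′ tag libraries of mouse bladder urothelium, 1 from wild-type mice, 1 from Lpar6 knockout mice and 1 from Cab39l knockout mice. Each came from a suspension pooled over 15 mice. Single animals cannot be separated, and strain, sex, age and the deleted parts of the genes are not given in the labels. The Lpar6 product is a lysophosphatidic acid receptor and the Cab39l product a scaffold of kinase complexes, and the series asks how their loss bears on urothelial differentiation. Cells were released with trypsin placed in the bladder, strained, and cleared of red cells on a Ficoll gradient. With 1 library per group there is no replicate check of any difference between libraries, and none was tested.

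The rule kept 3176 of 8085 wild-type, 4834 of 8293 Lpar6 knockout and 5466 of 9406 Cab39l knockout barcodes, with 78491895, 128620816 and 159977320 UMIs. Median depth was 22252.5, 26994 and 29960.5 UMIs per cell and the median mitochondrial share 9.02, 6.27 and 6.17%. All 12 urothelial markers were present in each library, with summed levels of 17526 to 19806 CPM. The 4 uroplakins of the cell rule are among the 12, so their presence was set by the rule. They held 8410 CPM of the sum in wild type, 10720 CPM in Lpar6 knockout cells and 10322 CPM in Cab39l knockout cells. Markers of other cells were low but unequal, 85.0, 10.1 and 20.6 CPM over 17 immune genes, 308, 149 and 66.2 CPM over 4 haemoglobin genes, and 11.7, 2.56 and 313 CPM over 5 male gland genes, in the order wild type, Lpar6 knockout, Cab39l knockout. Their part in the results below was not tested. Between 3 and 8 of the cells used had a barcode that a second library also held. Lpar6 had 0 UMIs in its knockout, which allows up to 0.0287 CPM by the exact Poisson interval, against 13.8 CPM in wild type and 12.1 CPM in the Cab39l knockout, and Cab39l was 31.7 CPM in its knockout against 112 and 94.0 CPM in wild type and the Lpar6 knockout. A 3′ tag outside a deleted part would check nothing.

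All 104 genes reached 10 CPM in wild type, and 88 did in each knockout (86 in all 3 libraries). Together they made up 4517 CPM in wild type, 3798 CPM in Lpar6 knockout cells and 3963 CPM in Cab39l knockout cells. The mean over libraries passed 100 CPM for 5 genes, which held 34.2% of the summed mean level, and stayed under 50 CPM for 84. The CPM level was highest in wild type for 85 genes (81.7%), in Lpar6 knockout cells for 3 and in Cab39l knockout cells for 16. Of all 7690 genes of at least 10 CPM 69.9% were highest in wild type, where the scale of CPM lay higher, so an order of libraries in CPM is read relative to the median gene further on. Of the 104 genes 14 reached 10 CPM in wild type alone. Just inside the threshold were Slc37a1 at 10.0 CPM and Slc37a3 at 10.2 CPM. Just outside were Slc35e1 at 9.84 CPM and Slc16a14 and Slc25a32 at 9.81 CPM each, and all of these values were from wild type. A 3′ tag counts each molecule once, so levels were not divided by transcript length.

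**Figure D1:**
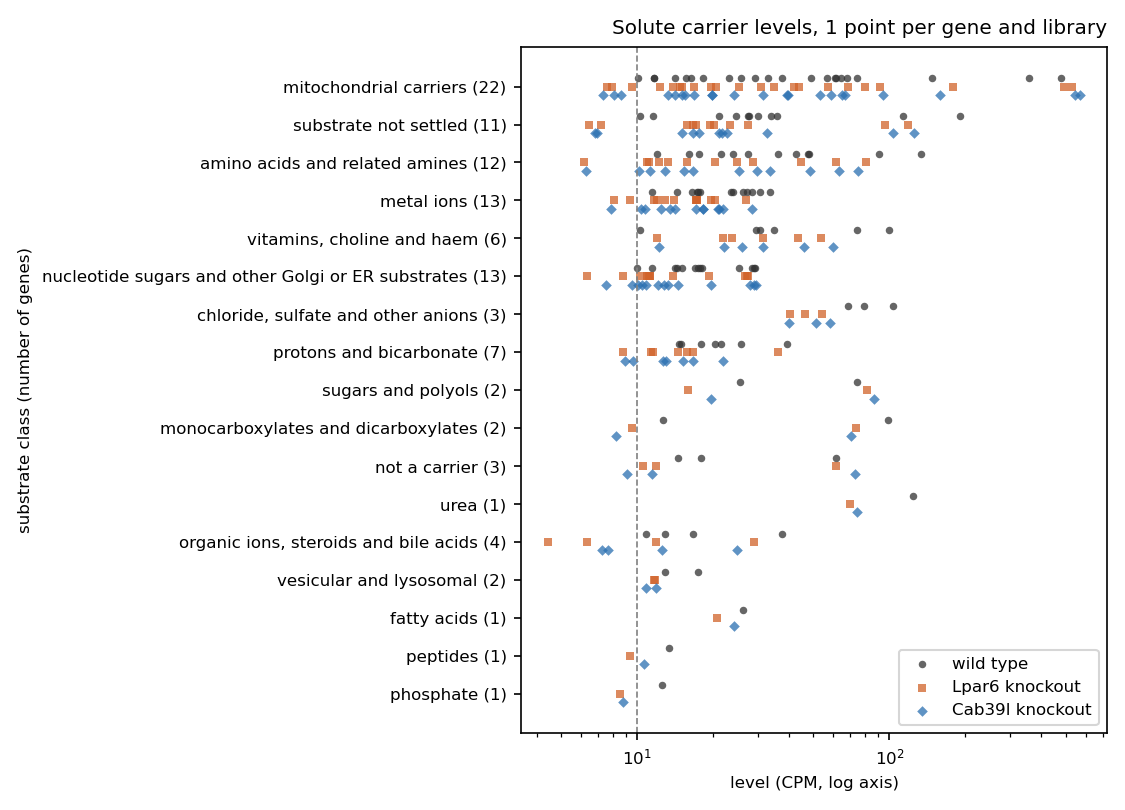
Levels of the 104 solute carrier genes by substrate class, in CPM on a log axis, with 1 point per gene and library and the number of genes of each class in brackets. The dashed line marks 10 CPM, and the points farthest right are Slc25a5 and Slc25a3 among the mitochondrial carriers, at 356 to 572 CPM.

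The 22 genes of the Slc25 family, most of which encode carriers of the mitochondrial inner membrane, held 36.8% of the UMIs of all 104 genes in wild type, and 47.7 and 47.6% in the knockouts of Lpar6 and Cab39l. The highest was Slc25a5 on chromosome X, which exchanges ADP for ATP, with 478 CPM in wild type, 530 CPM in Lpar6 knockout cells and 572 CPM in Cab39l knockout cells. The mitochondrial phosphate carrier Slc25a3 followed with 356 CPM in wild type, 490 CPM in Lpar6 knockout cells and 546 CPM in Cab39l knockout cells. Slc25a4, the other adenine nucleotide carrier of the set, had 148 CPM in wild type, 178 CPM in Lpar6 knockout cells and 159 CPM in Cab39l knockout cells. All 3 were lowest in wild type. Slc25a11, which exchanges oxoglutarate for malate, had 68.1 CPM in wild type, 91.7 CPM in Lpar6 knockout cells and 94.1 CPM in Cab39l knockout cells, and the citrate carrier Slc25a1 had 60.9 CPM in wild type, 80.3 CPM in Lpar6 knockout cells and 66.7 CPM in Cab39l knockout cells. The other members of the family included Slc25a44 at 11.6 CPM in wild type. Slc25a5 has an annotated transcribed pseudogene on chromosome 14, so its share of the tags is uncertain.

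Among the 12 genes for amino acids and related amines, Slc38a2, a sodium-coupled carrier of neutral amino acids, was highest with 134 CPM in wild type, 80.4 CPM in Lpar6 knockout cells and 74.9 CPM in Cab39l knockout cells. The taurine carrier Slc6a6 had 91.1 CPM in wild type, 61.4 CPM in Lpar6 knockout cells and 62.8 CPM in Cab39l knockout cells. Both were highest in wild type in CPM, and the knockout libraries lay close to each other. Slc3a2, the heavy chain that brings several amino acid exchangers to the cell surface, differed little in CPM. It had 48.1 CPM in wild type, 44.4 CPM in Lpar6 knockout cells and 48.5 CPM in Cab39l knockout cells. The creatine carrier Slc6a8 had 42.6 CPM in wild type, 28.8 CPM in Lpar6 knockout cells and 29.9 CPM in Cab39l knockout cells and the glutamine carrier Slc1a5 36.3 CPM in wild type, 24.9 CPM in Lpar6 knockout cells and 33.5 CPM in Cab39l knockout cells.

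Urea and anions had few but high members. Slc14a1, the urea transporter UT-B, had 124 CPM in wild type, 69.7 CPM in Lpar6 knockout cells and 74.2 CPM in Cab39l knockout cells. The sulfate carrier Slc26a2 had 104 CPM in wild type, 46.5 CPM in Lpar6 knockout cells and 58.2 CPM in Cab39l knockout cells. Both were highest in wild type in CPM. Relative to the median gene, Slc14a1 stood at a log2 against wild type of -0.44 (Lpar6 knockout) and -0.38 (Cab39l knockout). Each of these values was under 1.5-fold. Slc26a2 stood at -0.76, past 1.5-fold, and at -0.47, under it, in that order. The potassium chloride cotransporter Slc12a7, which lets cells lose salt and shrink, had 68.3 CPM in wild type, 40.4 CPM in Lpar6 knockout cells and 40.0 CPM in Cab39l knockout cells.

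Of sugar carriers, 2 of 22 symbols reached the threshold. Slc50a1 had 74.6 CPM in wild type, 81.4 CPM in Lpar6 knockout cells and 86.5 CPM in Cab39l knockout cells, and the glucose carrier Slc2a1 had 25.6 CPM in wild type, 15.9 CPM in Lpar6 knockout cells and 19.6 CPM in Cab39l knockout cells. Slc16a7, a carrier of lactate and pyruvate, had 99.1 CPM in wild type, 73.8 CPM in Lpar6 knockout cells and 70.4 CPM in Cab39l knockout cells. The choline carrier Slc44a1 had 99.9 CPM in wild type, 53.8 CPM in Lpar6 knockout cells and 59.9 CPM in Cab39l knockout cells, and Slc44a2 of the same family had 74.2 CPM in wild type, 43.3 CPM in Lpar6 knockout cells and 45.8 CPM in Cab39l knockout cells. No nucleoside carrier of 8 symbols reached 10 CPM.

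Metal carriers (13 genes) and carriers of nucleotide sugars and other substrates of the Golgi or endoplasmic reticulum (13 genes) ranged from 6.34 to 33.6 CPM over the 3 libraries. The highest metal carriers by mean were the zinc transporter Slc39a7 with 27.4 CPM in wild type, 26.9 CPM in Lpar6 knockout cells and 28.6 CPM in Cab39l knockout cells and Slc30a9 with 33.6 CPM in wild type, 20.3 CPM in Lpar6 knockout cells and 21.0 CPM in Cab39l knockout cells. The iron exporter Slc40a1 had 23.6 CPM in wild type, 17.2 CPM in Lpar6 knockout cells and 18.2 CPM in Cab39l knockout cells and the copper importer Slc31a1 16.4 CPM in wild type, 17.2 CPM in Lpar6 knockout cells and 17.1 CPM in Cab39l knockout cells. The CMP-sialic acid carrier Slc35a1 had 29.4 CPM in wild type, 27.4 CPM in Lpar6 knockout cells and 29.0 CPM in Cab39l knockout cells, and Slc35b1 28.6 CPM in wild type, 27.3 CPM in Lpar6 knockout cells and 27.9 CPM in Cab39l knockout cells. In CPM, Slc39a7, Slc31a1 and both Golgi carriers shown differed little between libraries, while Slc30a9 and Slc40a1 were highest in wild type. Slc31a1 is taken up again further on, relative to the trend with transcript length.

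The 7 genes for protons and bicarbonate ran from 14.6 to 39.2 CPM in wild type. Slc4a4, an electrogenic sodium bicarbonate cotransporter, was the highest with 39.2 CPM in wild type, 36.0 CPM in Lpar6 knockout cells and 21.9 CPM in Cab39l knockout cells. Organic ions and steroids had 4 members of 50 symbols, led by Slco3a1 with 37.4 CPM in wild type, 29.1 CPM in Lpar6 knockout cells and 24.8 CPM in Cab39l knockout cells. Single members stood for fatty acids (Slc27a4, 20.7 to 26.2 CPM), peptides (Slc15a4, 9.36 to 13.3 CPM) and phosphate (Slc20a1, 8.54 to 12.6 CPM). The vesicular and lysosomal genes Slc18b1 and Slc17a5, the second a sialic acid exporter, lay at 17.3 and 12.9 CPM in wild type.

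The substrates of 11 genes are not settled, and 2 of them were among the 5 highest mean levels of all. Slc35g1 had 191 CPM in wild type, 119 CPM in Lpar6 knockout cells and 125 CPM in Cab39l knockout cells, and Slc35f5 had 113 CPM in wild type, 96.1 CPM in Lpar6 knockout cells and 104 CPM in Cab39l knockout cells. Slc35g1 was highest in wild type in CPM, but relative to the median gene its log2 against wild type was -0.30 and -0.25, under 1.5-fold, and Slc35f5 stood at 0.15 and 0.24. For 3 genes the symbol does not stand for a carrier. Slc9a3r1, which encodes the scaffold protein NHERF1, had 61.6 CPM in wild type, 61.4 CPM in Lpar6 knockout cells and 72.9 CPM in Cab39l knockout cells, while Slc4a1ap and Slc7a6os had 17.8 and 14.5 CPM in wild type.

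Background was read in barcodes marked by lymphoid genes and outside the urothelial cells. There were 313 in wild type, and 33 and 123 in the knockouts of Lpar6 and Cab39l. Lymphoid cells should lack uroplakins, but no upper limit on uroplakins was set. The parts of free RNA and of barcodes with mixed cells were not tested. In these lymphoid barcodes the 4 uroplakins stood at 15.9, 17.5 and 15.4% of their level in urothelial cells. Of the 104 solute carrier genes, 3, 41 and 15 were at or below that share in lymphoid barcodes, and 33, 28 and 32 were higher there than in urothelial cells. All genes were not counted in this way, so nothing particular to the solute carriers is read from these counts. In wild type Slc25a35 stood at 4.53%, Slc6a9 at 4.34% and Slc44a3 had no UMI there, whereas the bicarbonate carrier Slc4a7 stood at 335% and the taurine carrier Slc6a6 at 53.9%. The lymphoid sums of the knockouts held only 116198 and 504312 UMIs, against 957454 in wild type, so low genes are imprecise there. With each cell thinned to 2000 UMIs, Slc6a6 had a UMI in 18.3% of wild-type urothelial cells (82.6% unthinned) and in 10.0% of lymphoid barcodes. For Slc14a1 the thinned shares were 21.7% (84.0% unthinned) and 5.60%.

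The first comparison within the epithelium set Krt5-high against Krt5-low cells. Krt5 encodes the main keratin of basal urothelial cells, which lie on the basement membrane, and its level falls toward the lumen. In each library the cells were divided into 4 equal groups by their Krt5 share of UMIs, the highest group was summed and set against the lowest, and the 6 sums were fitted with edgeR's quasi-likelihood test with the library as a block. Adjusted p-values are Benjamini-Hochberg values over all 12857 genes tested. They rest on the spread over 3 libraries of different genotype. As 6 sums leave few degrees of freedom, edgeR moderates that spread with the spread of other genes. A p-value thus does not measure a gene's own spread alone. Estimates are log2 ± SE, with the SE derived from the same moderated test. Krt5 was 687 against 61.1 CPM in wild type, 433 against 27.3 CPM in Lpar6 knockout cells and 710 against 71.7 CPM in Cab39l knockout cells. In wild type the basal regulator Trp63 was 179 against 140 CPM and Upk2 501 against 1152 CPM, and by the rule both ends hold cells with uroplakins.

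At an adjusted p under 0.05, 35 of the 104 genes (33.7%) were called, 16 higher and 19 lower in Krt5-high cells, and 34 of them moved the same way in every library. Over all genes tested 20.8% were called (10.5% higher, 10.3% lower), and among the 7690 genes of at least 10 CPM 24.7% were called (12.9% higher, 11.8% lower). The median log2 over the 104 genes was -0.03, and over all genes 0.01. Of the 104 genes 4 were both called and past 1.5-fold. These were Slc4a7, Slc16a9 and Slc6a6, which rose, and Slc9a4, which fell. Genes past 1.5-fold were not counted over all genes here, so nothing particular to the solute carriers is read from the 4.

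**Figure D2:**
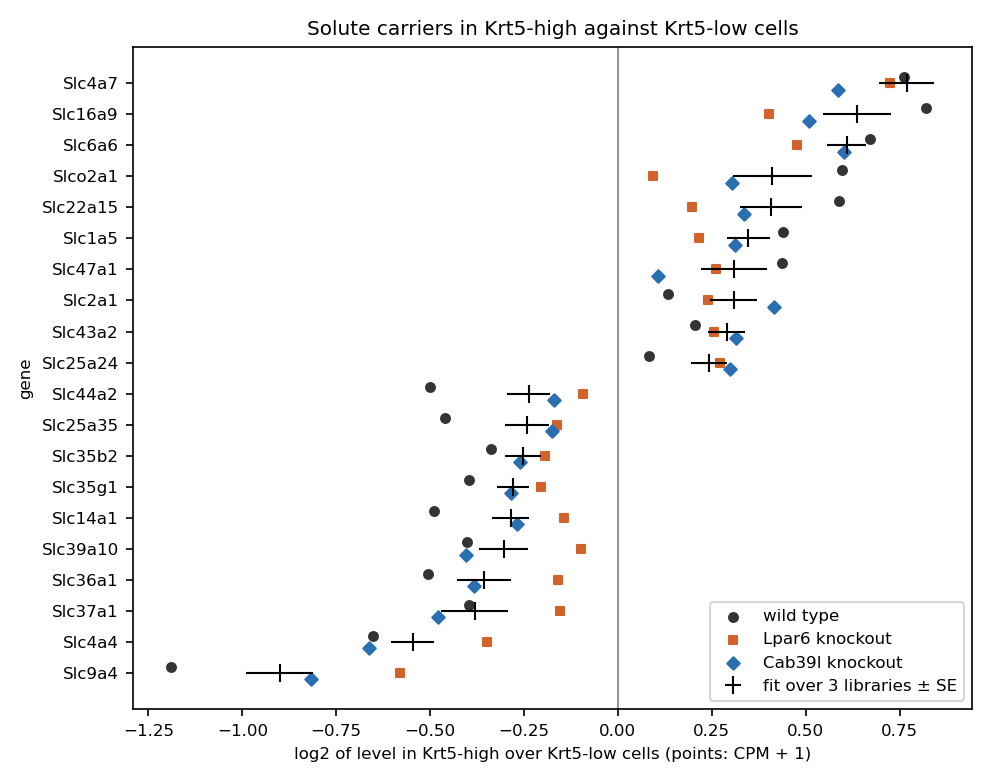
log2 of the level in Krt5-high over Krt5-low cells for the 10 highest and 10 lowest solute carrier genes that passed the test and moved the same way in every library. Points are the 3 libraries, on the log2 (CPM + 1) scale, and black bars the edgeR estimate ± SE, from Slc4a7 at 0.77 to Slc9a4 at -0.90.

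The widest split was among carriers that move acid and base. Slc4a7 (ENSMUSG00000021733, chr14:14702279-14799940 in mm10, plus strand), an electroneutral sodium bicarbonate cotransporter, had 19.7 against 11.2 CPM in wild type, 11.4 against 6.50 CPM in Lpar6 knockout cells and 11.7 against 7.43 CPM in Cab39l knockout cells. Its log2 change was 0.77 ± 0.07, adjusted p = 6.83e-06. Slc4a4 (ENSMUSG00000060961, chr5:88886818-89239653, plus strand), the electrogenic cotransporter, had 29.9 against 47.5 CPM in wild type, 31.2 against 40.0 CPM in Lpar6 knockout cells and 16.6 against 26.9 CPM in Cab39l knockout cells. It fell with a log2 change of -0.55 ± 0.06, adjusted p = 1.7e-05. The sodium proton exchanger Slc9a4 (ENSMUSG00000026065, chr1:40580081-40630725, plus strand) had 8.14 against 19.8 CPM in wild type, 8.42 against 13.1 CPM in Lpar6 knockout cells and 6.80 against 12.8 CPM in Cab39l knockout cells. Its log2 change was -0.90 ± 0.09, adjusted p = 1.06e-05. For all 3 genes the direction was the same in the 3 libraries, and the 95% Poisson intervals of the high and low values did not overlap in any of them. These intervals cover counting error only. Their overlap was not counted over all genes, so nothing particular to these genes is read from it. Slc4a8, another sodium bicarbonate carrier, passed the test (log2 -0.25 ± 0.08, adjusted p = 0.0444) but did not fall in every library. The 3 other genes of the class did not pass, among them Slc4a2 at 0.04 ± 0.06, adjusted p = 0.658 and Slc9a8 at -0.10 ± 0.06, adjusted p = 0.297. Slc4a7 is also the gene of this class with the highest relative level in lymphoid barcodes. Summed immune markers were 89.5 CPM in wild-type Krt5-high and 126 CPM in Krt5-low cells, and without the 34, 4 and 17 cells marked by immune genes the Slc4a7 change was 0.78 ± 0.07.

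Among amino acid carriers, 4 of 12 rose and 1 fell. Slc6a6 had 119 against 74.3 CPM in wild type, 72.9 against 52.1 CPM in Lpar6 knockout cells and 79.9 against 52.3 CPM in Cab39l knockout cells, and its log2 change was 0.61 ± 0.05, adjusted p = 2.93e-06. Slc1a5 had 43.3 against 31.7 CPM in wild type, 27.3 against 23.4 CPM in Lpar6 knockout cells and 37.5 against 30.0 CPM in Cab39l knockout cells (log2 0.35 ± 0.06, adjusted p = 0.000745). Slc43a2, a carrier of large neutral amino acids, had 51.7 against 44.7 CPM in wild type, 22.6 against 18.7 CPM in Lpar6 knockout cells and 28.9 against 23.0 CPM in Cab39l knockout cells (log2 0.29 ± 0.05, adjusted p = 0.000837). In all 3 genes the Krt5-high value was the higher one in each library. Slc38a2 rose less, with log2 0.15 ± 0.04, adjusted p = 0.0227. The gene that fell was Slc36a1, a proton-coupled carrier of small amino acids at the lysosome and plasma membrane, with 14.0 against 20.3 CPM in wild type, 10.6 against 12.0 CPM in Lpar6 knockout cells and 9.23 against 12.3 CPM in Cab39l knockout cells and log2 -0.36 ± 0.07, adjusted p = 0.00284.

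Of organic ion carriers, 3 of 4 rose. Slco2a1, a prostaglandin transporter, had 13.4 against 8.50 CPM in wild type, 4.60 against 4.26 CPM in Lpar6 knockout cells and 8.63 against 6.81 CPM in Cab39l knockout cells (log2 0.41 ± 0.11, adjusted p = 0.0132). Slc22a15 had 20.9 against 13.6 CPM in wild type, 12.7 against 11.0 CPM in Lpar6 knockout cells and 14.4 against 11.2 CPM in Cab39l knockout cells (log2 0.41 ± 0.08, adjusted p = 0.0033). The exporter Slc47a1 had 14.8 against 10.6 CPM in wild type, 7.25 against 5.88 CPM in Lpar6 knockout cells and 7.88 against 7.25 CPM in Cab39l knockout cells (log2 0.31 ± 0.09, adjusted p = 0.0238). The differences in the knockout libraries were small beside that in wild type for Slco2a1, and Slc47a1 in the Cab39l knockout differed by less than 1 CPM. Slc16a9, of the monocarboxylate carrier family, rose with 17.98 against 9.76 CPM in wild type, 11.1 against 8.19 CPM in Lpar6 knockout cells and 10.3 against 6.97 CPM in Cab39l knockout cells and log2 0.64 ± 0.09, adjusted p = 0.000239. The glucose carrier Slc2a1 rose with 27.8 against 25.2 CPM in wild type, 17.4 against 14.6 CPM in Lpar6 knockout cells and 24.1 against 17.8 CPM in Cab39l knockout cells and log2 0.31 ± 0.06, adjusted p = 0.00311.

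Among urea and anion carriers Slc14a1 fell, with 96.1 against 135 CPM in wild type, 63.9 against 70.6 CPM in Lpar6 knockout cells and 64.6 against 78.1 CPM in Cab39l knockout cells and log2 -0.29 ± 0.05, adjusted p = 0.00102. Slc12a7 also fell (log2 -0.16 ± 0.05, adjusted p = 0.0249), while the sulfate carrier Slc26a2 did not pass (log2 0.06 ± 0.04, adjusted p = 0.343). Of metal carriers 1 of 13 rose (Slc30a9) and 2 fell, the copper importer Slc31a1 and the zinc importer Slc39a10, the latter with 22.3 against 29.8 CPM in wild type, 14.2 against 15.3 CPM in Lpar6 knockout cells and 12.2 against 16.5 CPM in Cab39l knockout cells and log2 -0.30 ± 0.06, adjusted p = 0.00421. Of mitochondrial carriers 1 of 22 rose and 3 fell. The riser was Slc25a24, a carrier of ATP-Mg and phosphate, with log2 0.24 ± 0.05, adjusted p = 0.00234, and Slc25a35 (log2 -0.24 ± 0.06, adjusted p = 0.00972), Slc25a48 and Slc25a1 fell. The abundant Slc25a5 and Slc25a3 did not pass, at log2 -0.06 ± 0.05, adjusted p = 0.409 and 0.09 ± 0.06, adjusted p = 0.296.

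Of 13 Golgi and endoplasmic reticulum carriers 1 rose, Slc35d1, and 2 fell. Slc35b2, which brings the sulfate donor PAPS into the Golgi, had 22.6 against 28.8 CPM in wild type, 25.3 against 29.1 CPM in Lpar6 knockout cells and 27.7 against 33.4 CPM in Cab39l knockout cells (log2 -0.25 ± 0.05, adjusted p = 0.00207). Slc37a1 had 8.50 against 11.5 CPM in wild type, 5.92 against 6.71 CPM in Lpar6 knockout cells and 5.78 against 8.45 CPM in Cab39l knockout cells (log2 -0.38 ± 0.09, adjusted p = 0.00716). Of genes with no settled substrate 3 of 11 passed, all lower, led by Slc35g1 with 160 against 210 CPM in wild type, 109 against 125 CPM in Lpar6 knockout cells and 109 against 133 CPM in Cab39l knockout cells and log2 -0.28 ± 0.04, adjusted p = 0.000376. Choline carrier Slc44a2 fell, with 59.9 against 85.2 CPM in wild type, 42.3 against 45.1 CPM in Lpar6 knockout cells and 43.4 against 49.0 CPM in Cab39l knockout cells and log2 -0.24 ± 0.06, adjusted p = 0.00877, and the riboflavin carrier Slc52a3 rose (log2 0.22 ± 0.06, adjusted p = 0.0103).

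Over all 4 groups of cells ordered by Krt5, 4 genes rose at every step in all 3 libraries (Slc4a7, Slc16a9, Slc6a6 and Slc43a2) and 5 fell (Slc9a4, Slc35g1, Slc25a35, Slc25a48 and Slc9a3r1). The other 95 did neither in all 3 libraries. This order was not counted over all genes, so nothing particular to the solute carriers is read from the counts. Slc4a7 went from 11.2 over 13.7 and 16.4 to 19.7 CPM in wild type. Slc9a4 went from 19.8 over 16.6 and 12.2 to 8.14 CPM. Slc14a1 changed less over the 3 lower groups, 135, 136 and 122 CPM in wild type, and stood at 96.1 CPM in the highest. Slc4a4 fell at every step in wild type and the Lpar6 knockout and had 2 equal middle groups, 21.4 CPM each, in the Cab39l knockout.

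**Figure D3:**
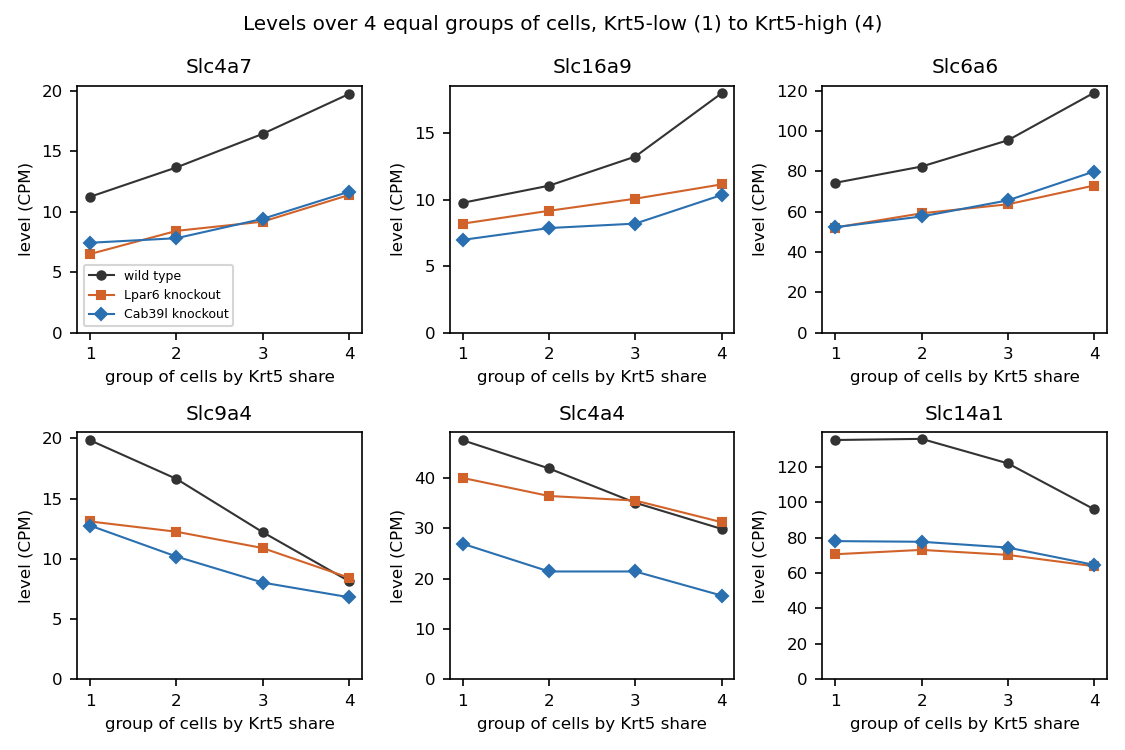
Levels in CPM of 6 solute carrier genes over 4 equal groups of the cells of each library, ordered by Krt5 share from low (1) to high (4). Slc4a7, Slc16a9 and Slc6a6 rise at every step in the 3 libraries, Slc9a4 falls at every step, Slc4a4 falls apart from 2 equal middle groups in the Cab39l knockout, and Slc14a1 drops mainly in the highest group.

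Krt5-high cells were shallower than Krt5-low cells, with median depths of 18746.5 against 24236.5 UMIs in wild type, 24229.5 against 28256 in Lpar6 knockout cells and 22392 against 32592 in Cab39l knockout cells. The median mitochondrial share was 7.43 against 10.1%, 6.12 against 6.48% and 5.92 against 6.48%. Summed haemoglobin genes stood at 265 against 459 CPM, 63.7 against 200 CPM and 69.8 against 116 CPM, and male gland genes at 11.9 against 12.5 CPM, 2.89 against 2.63 CPM and 89.2 against 401 CPM. The part of these in the contrast was not tested. With groups taken within 5 bins of depth 8 genes rose and 12 fell, and DESeq2 on the same sums called 5 higher and 4 lower. The 4 genes past 1.5-fold passed the test in both. In the depth bins Slc6a6 and Slc16a9 were under 1.5-fold, at a log2 of 0.52 and 0.56. Slc4a7 and Slc9a4 stayed past it there, at 0.645 and -0.79. Without the library block edgeR called 0 of the 104 genes, 7 of which had an unadjusted p under 0.05, and without the Cab39l knockout library 6 rose and 8 fell. Of the 35 genes called with all libraries, 14 were still called without that library and 28 without wild type. Those lost without the Cab39l knockout included Slc25a24, Slc43a2, Slc2a1, Slco2a1, Slc37a1 and Slc39a10 (adjusted p = 0.0508 to 0.161). Those lost without wild type included Slc47a1 and Slco2a1 (adjusted p = 0.161 and 0.0823). With cells ordered by the basal genes Trp63, Itga6, Itgb4, Col17a1, Lamb3, Krt14 and Krt17 in place of Krt5, 19 rose and 6 fell. The same 4 genes passed the test in that order with the same direction, but all were under 1.5-fold. Slc4a7 stood at a log2 of 0.56, Slc6a6 at 0.55, Slc16a9 at 0.44 and Slc9a4 at -0.38 (adjusted p = 0.0253 for Slc9a4). Slc4a4 then stood at -0.22, Slc14a1 at -0.06, Slc37a1 at -0.02 and Slc25a24 at 0.18, with adjusted p = 0.0597, 0.593, 0.901 and 0.113, and the estimates of Slc36a1, Slc39a10, Slc35g1 and Slc44a2 changed sign to 0.07, 0.0008, 0.10 and 0.13 without passing the test.

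Promoter windows are given for the highest 2 and lowest 2 genes of this contrast that have a RefSeq entry (GRCm38.p6) whose start site lies within 1000 bases of the annotated gene start, to show what surrounds the starts of genes that moved in opposite directions. Each runs from 250 bases before to 50 bases after the start, and capitals mark matches on either strand to GGGCGG (the GC box), to CCAAT (the CCAAT box), to TATAAA (the TATA box), to TGANTCA (the AP-1 motif) or to AGATAA (the GATA motif), which do not overlap in the windows shown. The windows are chr10:70245026-70245325 (plus strand), chr3:101924404-101924703 (minus strand), chr5:88887010-88887309 (plus) and chr11:55204090-55204389 (plus).
Slc16a9: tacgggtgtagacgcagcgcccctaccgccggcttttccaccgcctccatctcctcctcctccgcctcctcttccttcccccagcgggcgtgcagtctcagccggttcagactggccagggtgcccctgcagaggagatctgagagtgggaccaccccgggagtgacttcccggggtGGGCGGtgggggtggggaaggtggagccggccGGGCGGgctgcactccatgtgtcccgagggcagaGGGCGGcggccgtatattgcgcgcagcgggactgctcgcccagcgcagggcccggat
Slc22a15: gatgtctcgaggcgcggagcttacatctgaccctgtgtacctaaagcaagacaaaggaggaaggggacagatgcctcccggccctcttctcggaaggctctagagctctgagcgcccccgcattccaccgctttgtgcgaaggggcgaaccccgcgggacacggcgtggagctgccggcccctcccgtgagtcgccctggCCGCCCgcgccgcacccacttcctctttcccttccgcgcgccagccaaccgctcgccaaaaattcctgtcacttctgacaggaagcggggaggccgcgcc
Slc4a4: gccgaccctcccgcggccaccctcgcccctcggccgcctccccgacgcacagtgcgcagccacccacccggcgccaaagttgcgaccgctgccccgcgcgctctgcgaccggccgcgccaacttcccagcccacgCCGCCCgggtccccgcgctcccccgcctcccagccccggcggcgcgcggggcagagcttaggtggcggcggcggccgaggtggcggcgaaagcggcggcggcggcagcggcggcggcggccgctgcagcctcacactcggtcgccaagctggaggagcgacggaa
Slc36a1: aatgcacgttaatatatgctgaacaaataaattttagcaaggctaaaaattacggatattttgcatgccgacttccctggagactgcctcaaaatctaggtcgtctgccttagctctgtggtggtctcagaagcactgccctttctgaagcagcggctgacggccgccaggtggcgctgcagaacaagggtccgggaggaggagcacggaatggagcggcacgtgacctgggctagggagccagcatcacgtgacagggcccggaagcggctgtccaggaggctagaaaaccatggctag
Slc16a9 holds 3 GC boxes, Slc22a15 and Slc4a4 1 each, and the Slc36a1 window holds none of the 5 motifs. Entries matched 79 of the 104 genes. A GC box lay in 63 of these 79 (79.7%), against 35.9% of all 27025 promoters. The CCAAT box lay in 27 against 37.9% of all promoters, the TATA box in 7 against 14.2%, the GATA motif in 4 against 11.4% and the AP-1 motif in 3 against 7.93%. These are matches of letters, not binding sites, and genes at high levels were not set apart from silent genes among all promoters. Slc4a4 has 2 starts listed and the first was used.

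Between libraries the CPM scale shifts, so changes are given relative to the median gene of at least 10 CPM, which stood at a log2 of -0.38 against wild type for the Lpar6 knockout and -0.35 for the Cab39l knockout. Values are log2 of (CPM + 1) ratios, a gene is counted at 1.5-fold, and both comparisons share the wild-type library. In the Lpar6 knockout 4 of the 104 genes were higher, against 12.5% of the 7690 genes of at least 10 CPM, and 3 were lower, against 4.51%. The higher genes were all mitochondrial carriers, Slc25a3 (0.84), Slc25a11 (0.80), Slc25a1 (0.77) and Slc25a4 (0.65). The lower genes were Slc43a2 (-0.81), Slc26a2 (-0.76) and Slco2a1 (-0.75). Slco2a1 is 1 of the 14 genes that reached 10 CPM in wild type alone, so the threshold favours a lower value in the knockouts. In Krt5-low cells alone it stood at -0.44 and in Krt5-high cells at -1.05. Summed basal markers were 1722 CPM in wild type, 577 CPM in Lpar6 knockout cells and 1636 CPM in Cab39l knockout cells, and Slc43a2 and Slco2a1 were higher in Krt5-high cells. The part of basal cells in these differences was not tested. In the Cab39l knockout 4 were higher, against 11.2% of all genes, namely Slc25a3 (0.97), Slc25a11 (0.82), Slc25a5 (0.61) and Slc9a3r1 (0.59). There 0 were lower, against 7.11%, and the lowest were Slc4a1ap (-0.54), Slc43a2 (-0.53), Slc39a10 (-0.50) and Slc38a6 (-0.48), the last also at 10 CPM in wild type alone. The shares of the solute carriers past 1.5-fold, 3.85% higher in each knockout and 2.88% and 0% lower, were all below those of all genes. Without centring on the median gene, 0 and 1 were higher and 38 lower in each knockout, against 1.29 and 0.975% higher and 32.4 and 33.7% lower of all genes.

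These changes ran with transcript length. The rank correlation of the log2 ratio with the longest annotated transcript was -0.61 over the 104 genes for the Lpar6 knockout and -0.72 for the Cab39l knockout, and -0.70 and -0.75 over 7686 genes, all measured in the same libraries. The 15 genes with transcripts up to 2 kb had median log2 ratios of -0.01 and 0.08 before centring, and the 25 genes from 5 kb had -0.64 and -0.65. The mitochondrial carriers are short, with a median of 2.32 kb against 3.48 kb over the 104 genes. Relative to the smooth trend with length over all genes, none of the genes counted above was past 1.5-fold, and Slc25a3 stood at 0.45 and 0.55. By that measure Slc52a2, a riboflavin carrier, stood out at 0.85 and 0.92, with 10.3 CPM in wild type, 12.0 CPM in Lpar6 knockout cells and 12.2 CPM in Cab39l knockout cells, and Slc31a1 at 0.61 and 0.62. Slc4a4 at 0.62 and the exporter Slc47a1 at -0.61 passed in the Lpar6 knockout, and Slc4a1ap at -0.59 in the Cab39l knockout. Slc47a1 too reached 10 CPM in wild type alone. By this measure 3.81 and 3.43% of all genes were higher and 2.03 and 1.91% lower. The part of transcript length in these differences was not tested.

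**Figure D4:**
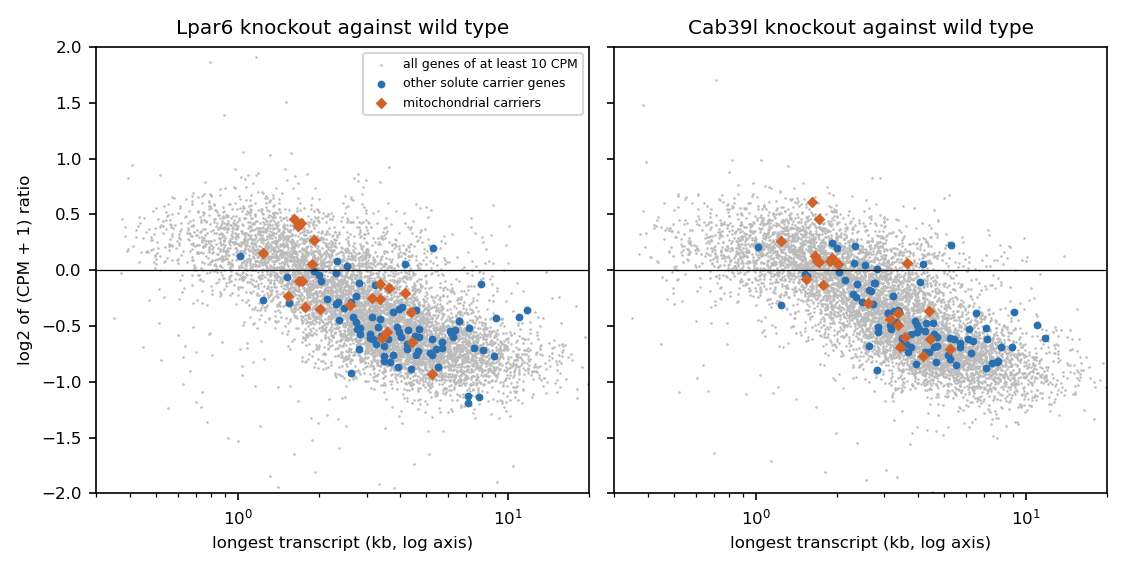
log2 of the (CPM + 1) ratio against wild type, before centring, by the longest annotated transcript in kb on a log axis, for the 104 solute carrier genes and all genes of at least 10 CPM. The solute carriers follow the grey cloud of all genes, with mitochondrial carriers at the short, high end, and 33 and 35 of 7686 genes lie outside the axes.

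Between the knockout libraries the median gene differed by a log2 of 0.001. Set against each other, 1 of the 104 genes was at least 1.5-fold higher in the Lpar6 knockout, against 0.624% of all genes, and 1 was lower, against 0.819%. The higher was Slc4a4, with 36.0 CPM (95% Poisson interval 35.0 to 37.1) against 21.9 CPM (21.2 to 22.7), a log2 of 0.69, beside 39.2 CPM in wild type. In Krt5-high cells alone the difference was 0.84 and in Krt5-low cells 0.58, the latter under 1.5-fold. In each of the 4 groups the Cab39l knockout was the lowest library for Slc4a4 in CPM. Relative to the median gene, Slc4a4 in the Cab39l knockout stood at -0.46 against wild type, under 1.5-fold. Over 14 alternative settings that value ran from -0.81 to -0.0046. The lower was Slco2a1, with 4.42 CPM (4.07 to 4.80) against 7.26 CPM (6.85 to 7.69), a log2 of -0.61, and these 2 intervals did not overlap. Slco2a1 had 10.8 CPM in wild type, where the scale of CPM lay higher. Between the knockouts Slco2a1 stood at -0.81 in Krt5-high cells alone and, under 1.5-fold, at -0.55 in Krt5-low cells. Also under 1.5-fold, it stood at -0.55 without the 6% of cells with most UMIs and at -0.38 with a pseudocount of 5 CPM. Relative to the length trend the same 2 genes were counted, at 0.63 and -0.67, against 0.612 and 0.807% of all genes. Intervals cover counting error only, and their overlap was not counted over all genes.

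Related transport genes were read in the same fits, from lists chosen with earlier results of these data known. Their counts stand beside 10.5% higher and 10.3% lower over all genes tested, and nothing particular to the lists is read from them. Of 43 pumps and channels 21 reached 10 CPM and 30 were tested, with 5 higher and 4 lower in Krt5-high cells. Aqp3, a water and glycerol channel, had 618, 552 and 623 CPM and rose by a log2 of 0.40, the sodium pump subunit Atp1b3 rose by 0.22, and the calcium-activated channels Kcnn4 and Ano1 rose by 2.38 and 0.37. Proton pump subunits Atp6v1a and Atp6v0d1 fell, at -0.22 and -0.18. Of 13 genes of WNK signalling and the LKB1 complex, namely WNK, SPAK and MO25 genes with Stk11, Strada, Stradb and the ubiquitin ligase parts Cul3 and Klhl3, 8 reached the level, and 3 of 12 tested passed, all higher (the kinase Wnk4, Cul3 and Stk11, which encodes LKB1), while Wnk1, Cab39 and Cab39l did not pass, at 0.04, -0.12 and -0.14. Of 23 genes of the amino acid response 14 reached the level, and 3 of 20 tested rose and 8 fell, among them Cebpb at 0.31, Atf4 at -0.15 and Eif4ebp1 at -0.25. All these are edgeR log2 estimates with adjusted p-values under 0.05 unless said otherwise.

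Exon bases of 39 of the 104 genes are shared with another annotated gene, mostly on the opposite strand, among them Slc9a4, Slc6a6, Slc43a2, Slc2a1, Slc16a9 and Slc25a11. Whether counting used strand is not stated in any source used, so tags of such a pair may not be told apart.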

How the data were processed

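The authors deposited UMI counts, not normalized, for each gene and barcode, in matrices made with Cell Ranger 3.0.2 on mm10, per the submitters' processing notes and the file headers. The annotation behind the counts is not stated in any source used. Positions and transcript lengths came from GENCODE vM21, which held 99.6% of the gene identifiers, and promoters from RefSeq. Counts were summed over the cells of a library and scaled to a common total (CPM). No cells were clustered and no doublet caller was run; leaving out the 6% of cells with most UMIs was an alternative.

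The highest and lowest of 4 equal groups of cells by Krt5 share were summed, filtered with filterByExpr and fitted with edgeR 4.0.16 (limma 3.58.1, R 4.3.3), with DESeq2 1.42.0 as an alternative. Both sums of a library come from 1 pooled suspension, so the library was a block. Standard errors were derived from the test statistic. Library ratios used a pseudocount of 1 CPM, and levels have exact 95% Poisson intervals, which cover counting error only. Python 3.11.15, numpy 2.4.6, scipy 1.17.1, pandas 2.3.3, statsmodels 0.14.6 (the lowess trend on length) and matplotlib 3.10.9 were used. The edgeR fit of the Krt5 contrast was tested on simulated data.

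Named genes were the 10 of highest mean level, the 2 highest of each substrate class (all of a class of 4 or fewer), the 10 highest and 10 lowest called genes of the Krt5 contrast, the 8 highest and 8 lowest of each library comparison, the 3 on each side of the threshold, and 4 of each related list; other genes were named after their values were seen. The genes, classes and lists were chosen with earlier results of these data known, and the comparison of the knockout libraries with each other and the background over genes of at least 10 CPM were added after seeing the data. A few genes that the rule would name are not reported here.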

Additional observations from a re-analysis of the deposited data

Results flagged for a closer look

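Among the solute carrier symbols that did not reach 10 CPM in urothelial cells, 6 did so in barcodes of at least 500 genes with less uroplakin than the rule asks, which no comparison above used (640 of them in wild type, and 92 and 292 for the knockouts of Lpar6 and Cab39l), and stood above their urothelial level in all 3 libraries. Slc38a1, a carrier of neutral amino acids, had 69.5 CPM there in wild type (95% Poisson interval 60.7 to 79.2) against 0.459 CPM in urothelial cells. Slc11a1, a metal carrier of phagocytes, had 33.2 CPM (27.2 to 40.1) against 0.115 CPM. The copper carrier Slc31a2 had 24.2 CPM against 6.51 CPM. Slc12a2, a sodium potassium chloride cotransporter, had 19.5 CPM in wild type and 75.8 CPM in the Cab39l knockout, against 2.59 and 1.63 CPM. Slc25a38 had 14.3 CPM against 5.02 CPM, and the nucleoside carrier Slc29a1 13.0 CPM against 6.56 CPM. The Lpar6 knockout values rest on 6 to 15 UMIs each.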

How the results depend on the processing

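The number of genes at the level was 104 and moved to 63 at 20 CPM. For the Lpar6 knockout against wild type (4 higher, 3 lower), total scaling gave 0 and 38, a 2-fold limit 0 and 0, cells weighted equally 5 lower and the length trend off 1 lower. For the Cab39l knockout (4 higher, 0 lower), the number higher was 2 with at most 10% mitochondrial UMIs, uroplakins at 0.5%, the length trend off or a pseudocount of 5 CPM, 1 with total scaling, 7 with TMM, median-of-ratios or a pseudocount of 0.1 CPM, and 0 at 2-fold. The number lower was 38 with total scaling, 1 with the length trend off, a pseudocount of 0.1 CPM or Krt5-high cells alone, and 2 in Krt5-low cells. For one knockout against the other (1 higher, 1 lower), a pseudocount of 0.1 CPM gave 2 higher, Krt5-low cells and a 2-fold limit 0 each way, and leaving out the top 6% of cells or a pseudocount of 5 CPM 0 lower.

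For the Krt5 contrast (16 higher, 19 lower), leaving out the top 6% of cells gave 10 higher, depth bins 8 and 12, other basal genes as the order 6 lower, and DESeq2 5 and 4. Without the replicate block edgeR called 0 and 0, and 7 genes had an unadjusted p under 0.05. Leaving out 1 library gave 6 to 13 higher and 8 to 22 lower, with the lowest numbers, 6 and 8, without the Cab39l knockout. Ordered by other basal genes, 4 estimates changed sign, Slc36a1 to 0.0655, Slc39a10 to 0.0008, Slc35g1 to 0.0977 and Slc44a2 to 0.135. Of 300 alternative values for the 20 genes of this contrast, 244 kept their direction and their side of the threshold. The cause of these shifts was not tested.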
